A study of Mus musculus with 4 samples.

Results

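The Ikaros zinc finger family comprises Ikzf1 (Ikaros), Ikzf2 (Helios), Ikzf3 (Aiolos), Ikzf4 (Eos) and Ikzf5 (Pegasus). Its 5 genes were taken by gene symbol out of 50600 genes counted, and all 5 were found. They were measured by RNA-seq in 4 libraries of primary mouse regulatory T cells, strain C57BL/6NJ, labelled as biological replicates 1 to 4 of a single group. The labels give no genotype other than the strain, no age and no sex, the same donor identifier for all 4 libraries, and a link to a protocol in which CD4 T cells are differentiated. The library names in the headers include activated and 72 h, which no sample label repeats. No label says that each library came from a separate animal. The sex-linked transcripts given below go against a single animal behind all 4 libraries, whatever the shared identifier stands for, and do not tell how many animals there were. The p-values measure the spread between these libraries. There was no second group, so genes were compared with each other within libraries, and each gene was compared between libraries. On mm10 the counted genes span chr11:11685003-11772926 (+) for Ikzf1, chr1:69531214-69687245 (-) for Ikzf2, chr11:98464902-98546031 (-) for Ikzf3, chr10:128632415-128645993 (-) for Ikzf4 and chr7:131388652-131410521 (-) for Ikzf5.

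Family members bind DNA through a cluster of C2H2 zinc fingers near the amino terminus and pair with themselves and with each other through a second, carboxy-terminal set of fingers. Most of their known actions in lymphocytes run through chromatin complexes that they recruit, above all the nucleosome remodelling and deacetylase complex (NuRD), and through corepressors such as CtBP. In regulatory T cells, Helios is used as a marker of thymic origin and of a stable suppressive state, and Eos is known as a Foxp3 partner in gene silencing. Ikaros is present throughout the lymphoid lineages, and Aiolos is best known from B cells and from helper T cells.

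The libraries held between 51460018 and 121477975 counts on genes, a ratio of 2.36. Markers of T cells (8 of 8 genes) and of regulatory T cells (5 of 5) were at 10 TPM (transcript counts scaled by gene length and library total) or more in every library, with summed levels of 5015 to 5286 and 4349 to 4816 TPM. No marker of B cells (0 of 9), CD8 T cells (0 of 5), natural killer cells (0 of 4), myeloid cells (0 of 8) or thymocytes (0 of 5) reached that level in all 4 libraries. Their summed levels were at most 12.6, 16.9, 2.24, 8.29 and 5.5 TPM. The CD8 T cell marker Cd8b1 was at 8.4, 11.9, 12.6 and 13.2 TPM in replicates 1 to 4, below 10 TPM in replicate 1 only. Cd8a was at 0.243 TPM on average. Sex-linked transcripts separated the libraries: Xist stood at 173 and 199 TPM in replicates 1 and 2 and below 1 TPM in replicates 3 and 4, and the Y-linked gene Eif2s3y showed the opposite, with 46.7 and 62.7 TPM in replicates 3 and 4.

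Ikzf1 to Ikzf4 carry closely similar DNA-binding fingers, and Ikzf5 a more distant set. The coding bases of the second finger are shown here because this finger sits in the core of the DNA-binding cluster. They come from the reference sequence, not from reads, and show how close the members are in their bases. Each runs from the first cysteine codon of that finger to the codon before the next finger, 84 bases on the coding strand within 1 exon of the GENCODE M21 model, on mm10. The positions are chr11:11754024-11754107 (+) for Ikzf1, chr1:69570560-69570643 (-) for Ikzf2, chr11:98488919-98489002 (-) for Ikzf3, chr10:128640208-128640291 (-) for Ikzf4 and chr7:131392480-131392563 (-) for Ikzf5. The amino-terminal cluster held 4 fingers in Ikzf1 to Ikzf4 and 3 in Ikzf5. Fingers were taken by their order, and whether the second one of Ikzf5 corresponds to that of the others was not tested. Capitals mark the bases that are the same in all 5 genes.
Ikzf1: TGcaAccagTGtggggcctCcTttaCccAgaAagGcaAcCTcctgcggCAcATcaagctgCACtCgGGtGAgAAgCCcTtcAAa
Ikzf2: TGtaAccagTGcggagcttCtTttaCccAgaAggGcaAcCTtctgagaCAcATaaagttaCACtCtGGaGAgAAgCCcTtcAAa
Ikzf3: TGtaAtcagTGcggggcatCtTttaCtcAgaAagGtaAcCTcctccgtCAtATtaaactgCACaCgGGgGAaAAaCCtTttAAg
Ikzf4: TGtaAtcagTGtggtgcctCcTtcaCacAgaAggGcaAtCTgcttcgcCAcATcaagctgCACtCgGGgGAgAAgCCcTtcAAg
Ikzf5: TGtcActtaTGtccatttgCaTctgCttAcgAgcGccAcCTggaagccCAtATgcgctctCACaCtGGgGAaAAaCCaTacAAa

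All 5 genes shared 33 of the 84 bases, in runs of at most 3, and Ikzf1 to Ikzf4 shared 56, in runs of at most 5. Identity to Ikzf1 over these bases was 83.3% for Ikzf2, 77.4% for Ikzf3, 85.7% for Ikzf4 and 47.6% for Ikzf5. At the protein level, translated from the longest GENCODE M21 coding sequences, the amino-terminal finger cluster was 86.7% to 96.2% identical between pairs of Ikzf1 to Ikzf4. Ikzf2 and Ikzf4 were the closest pair at 96.2%, and Ikzf5 was 38.5% to 46.7% identical to the others over its cluster. Over the whole protein the ranges were 50.9% to 58% among Ikzf1 to Ikzf4 and 33% to 34.6% with Ikzf5. Between the longest coding sequences of the 10 pairs, the longest stretch of identical bases had 26, in Ikzf1 and Ikzf3, GATCCCTTTGAGTGTAACATGTGTGG. Ikzf1 and Ikzf4 shared 24, GACTCCACAGATACAGAGAGCAAC. Ikzf2 and Ikzf4, the closest pair in protein, shared at most 20 coding bases in a row, and outside coding sequence a simple repeat of 32 bases. The read length is not given in the sources used here, and how reads over the longest shared stretches were assigned was not tested.

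Levels are given as TPM, which divides the counts of a gene by the length of its merged exons and scales each library to the same total. Ikzf1 was the most abundant member, followed by Ikzf4, with Ikzf3, Ikzf5 and Ikzf2 well below. All 5 were at 10 TPM or more in each of the 4 libraries, where 37.3% of 21764 protein-coding genes were.

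Ikzf1, the founding member and a regulator of lymphoid commitment, was at 293, 325, 288 and 297 TPM in replicates 1 to 4, from 25905 to 60484 counts. Its mean of 301 ± 16.8 TPM (SD, n = 4) placed it at rank 549 of the protein-coding genes, above 97.5% of them. The highest library was 1.13 times the lowest. Ikzf4, the Foxp3 corepressor partner, was at 129, 125, 123 and 118 TPM, from 6381 to 16503 counts. Its mean was 124 ± 4.53 TPM (SD, n = 4), rank 1650, and its libraries lay closest together of the 5 members, with a ratio of highest to lowest of 1.09.

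Ikzf3, which binds the same class of sites as Ikaros, was at 25.7, 41.7, 21.8 and 35.8 TPM, with counts of 8032, 6590, 4204 and 4728. Replicates 2 and 4 were high and replicates 1 and 3 low, so that the mean of 31.2 ± 9.12 TPM (SD, n = 4) described no single library well. Ikzf5, the divergent member whose DNA sites differ from those of Ikaros, was at 23.2, 32.9, 23.6 and 26.4 TPM, with a mean of 26.5 ± 4.47 (SD, n = 4). Ikzf2, the thymic-origin marker, was the lowest at 16.5, 21.5, 14.1 and 13.6 TPM, from 2385 to 6852 counts, with a mean of 16.4 ± 3.61 (SD, n = 4). Helios transcript was thus detected well above the floor of counting in all libraries, at rank 7307 and above 66.4% of protein-coding genes. In a bulk sample, a low level in every cell and a higher level in some of the cells cannot be told apart.

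**Figure D1:**
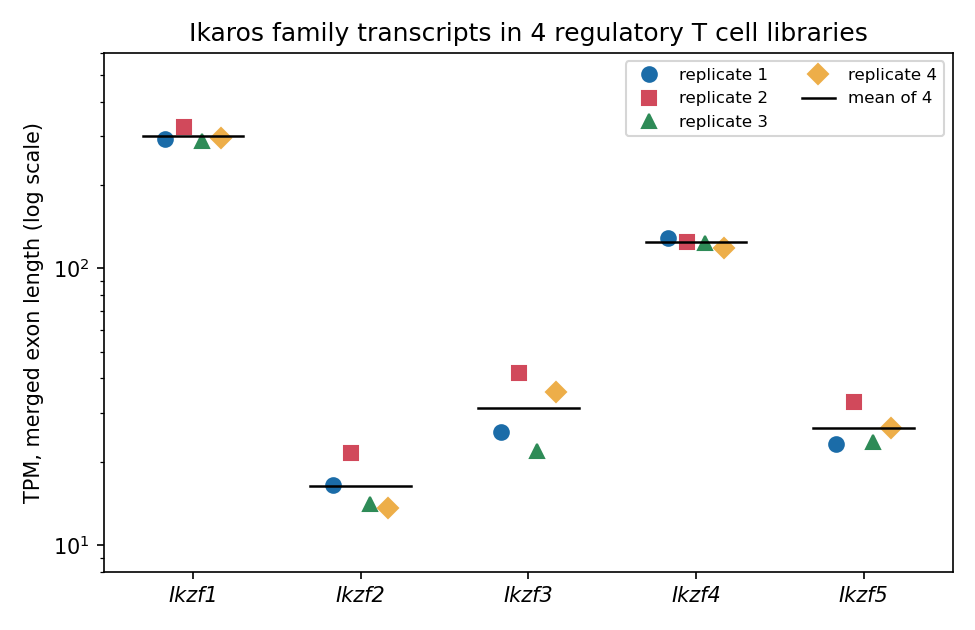
TPM of each member (log axis) in replicates 1 to 4, with black lines at the means of 4 libraries. Ikzf1 at 301 and Ikzf4 at 124 stand apart from the other 3 genes in every library, and the points of Ikzf3 and Ikzf5 overlap.

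Summed over the family, transcripts amounted to 487, 547, 470 and 491 TPM, a mean of 499 ± 33.2 (SD, n = 4). Ikzf1 made up 60.3% ± 0.702 of this sum (SD, n = 4), and its share ran only from 59.5% to 61.2%. Ikzf4 made up 24.9% ± 1.7, Ikzf3 6.2% ± 1.47, Ikzf5 5.29% ± 0.541 and Ikzf2 3.28% ± 0.509. These are shares of transcripts over all isoforms. Ikaros is known for short isoforms that lack DNA-binding fingers, and counts per gene do not separate them.

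Within libraries, each pair of members was compared by the difference of log2(TPM + 0.1), and tested two-sided by an exact sign-flip test over the 4 differences. The smallest p that 4 libraries allow is 2 of 16 sign assignments, so no pair could pass a threshold of 0.05, and the direction in each library carries the comparison. In 9 of the 10 pairs the sign was the same in 4 of 4 libraries, which is that smallest exact p, or 0.139 after Benjamini-Hochberg adjustment over the 10 pairs. Ikzf1 exceeded Ikzf4 by a log2 difference of 1.28 ± 0.09 (SD, n = 4), or 2.42-fold, and exceeded Ikzf2 by 4.21 ± 0.23, or 18.5-fold. Ikzf4 exceeded Ikzf3 by 2.03 ± 0.44 and Ikzf5 by 2.23 ± 0.24. Ikzf3 and Ikzf5, neighbours in the order, did not differ beyond their spread, with a log2 difference of 0.20 ± 0.24 (SD, n = 4), positive in 3 of 4 libraries (exact sign-flip p = 0.25). This held by merged exon length only: Ikzf3 exceeded Ikzf5 in 4 of 4 libraries in CPM (0.81 ± 0.24), per coding length (0.54 ± 0.24) and by the longest coding transcript (1.09 ± 0.24). Ikzf3 exceeded Ikzf2 by 0.90 ± 0.36 and Ikzf5 exceeded Ikzf2 by 0.70 ± 0.20, both in 4 of 4 libraries.

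The order below Ikzf1 depended on what counted as the length of a gene. The family's genes carry very different untranslated and retained-intron sequence: merged exons covered 11613 bases for Ikzf2 and 3580 for Ikzf4, while their coding lengths were 1596 and 2058 bases. For Ikzf3 the merged exons held 8754 bases, 2.39 times its longest protein-coding transcript of 3658 bases, and 1 of its 4 annotated transcripts in GENCODE M21 retains an intron. For Ikzf4 the counted model of 3580 bases was shorter than the M21 transcript of 5150 bases. Fragments in the added part were not counted, so its level by that length can be understated. Counts cover untranslated exons too, so levels per coding length can be overstated where those are long.

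Per coding length, Ikzf1 remained first at 376 ± 19.4 TPM (SD, n = 4). Ikzf4 followed at 74.8 ± 3.01 and Ikzf3 at 62.3 ± 17.8, and the 2 genes exchanged places between libraries: Ikzf4 exceeded Ikzf3 by a log2 difference of 0.31 ± 0.45, in 2 of 4 libraries (exact sign-flip p = 0.5). With the longest coding transcript as the length, the difference was 0.25 ± 0.45, again in 2 of 4 libraries (exact sign-flip p = 0.5). Without length normalization it was 0.74 ± 0.45, in 4 of 4 libraries. Both the size of the lead of Eos over Aiolos and its direction within libraries thus depended on the length used. Ikzf5 at 41.9 ± 6.85 and Ikzf2 at 41.5 ± 9.01 were level per coding length, with a log2 difference of 0.02 ± 0.20, and without any length normalization the sign turned to -0.32, in 0 of 4 libraries positive. Ikzf1 led each other member in 4 of 4 libraries under all 4 of these scales, by at least a log2 difference of 1.28 on average. Per coding length its share of the family's sum was 63.1% ± 2.02 (SD, n = 4). The share of Ikzf4 was then 12.6% ± 1.13, that of Ikzf3 10.3% ± 2.25, that of Ikzf5 6.99% ± 0.564 and that of Ikzf2 6.92% ± 0.982, so the shares of the smaller members rested on the length used.

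**Figure D2:**
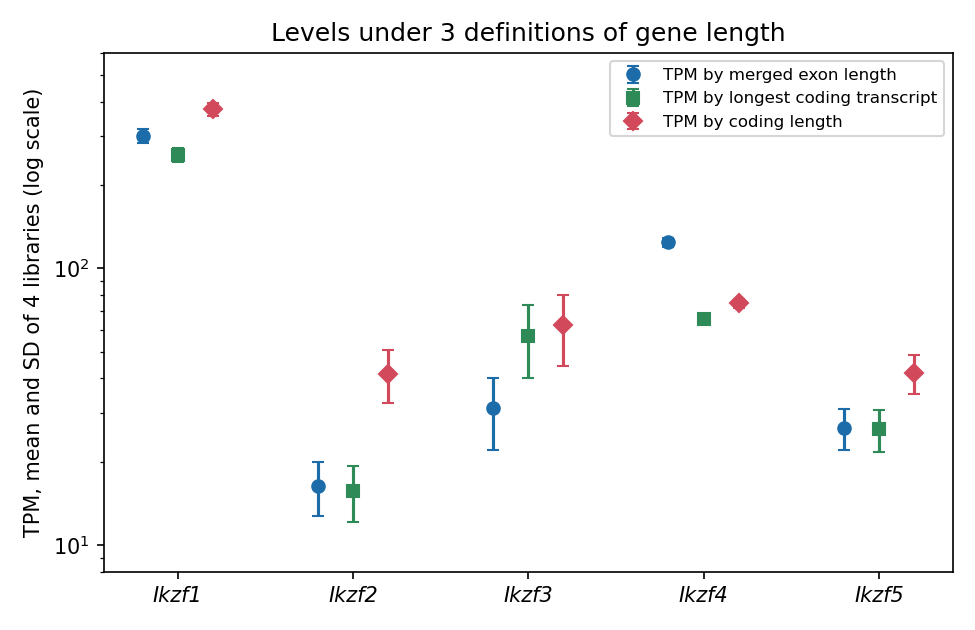
Mean TPM with SD of 4 libraries (log axis) for each member under 3 definitions of gene length: merged exons, the longest coding transcript and the coding sequence. Ikzf4 falls from 124 to 65.8 and 74.8 while Ikzf3 rises from 31.2 to 57.1 and 62.3, and the error bars of these genes overlap under the last 2 definitions.

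Ikzf1 ranked high among genes of the same class under each length. Of 575 genes whose translated coding sequence held at least 4 C2H2 finger matches, 203 (35.3%) were at 10 TPM or more in all 4 libraries, and their median was 5.59 TPM. Ikzf1 ranked 3 of these genes, after Maz at 430 and Plagl2 at 308 TPM. Ikzf4 ranked 6, after Yy1 at 144 and the insulator protein gene Ctcf at 132 TPM. Ikzf3, Ikzf5 and Ikzf2 ranked 72, 90 and 148, all above the median of the class. Per coding length the ranks were 2 for Ikzf1, 17 for Ikzf4, 19 for Ikzf3, 37 for Ikzf5 and 38 for Ikzf2. By the longest coding transcript Ikzf1 ranked 2 and Ikzf4 ranked 19.

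The members differed in how far the libraries spread. The coefficient of variation of TPM (CV, SD over mean) was 3.66% for Ikzf4 and 5.58% for Ikzf1, against a median of 6.82% over the 8113 protein-coding genes at 10 TPM or more. It was 16.8% for Ikzf5, 22% for Ikzf2 and 29.2% for Ikzf3, above the CV of 95.2%, 98.7% and 99.7% of those genes. Among genes near its own level, Ikzf5 lay below the 95th percentile of CV, which was 18.4% to 18.9%. Counting error was small beside the CVs of these 3 members. At the lowest count of each gene, it amounted to 1.54% for Ikzf3, 2.05% for Ikzf2 and 2.09% for Ikzf5. Replicate 2 was the highest library for Ikzf1, Ikzf2, Ikzf3 and Ikzf5, and replicate 1 for Ikzf4. Over all genes, replicate 2 also differed most from the others. The chi-square per degree of freedom of its counts was 60.7, 53.2 and 29 against replicates 1, 3 and 4. Between the other libraries it was 16.9 to 22.8. The part of this departure in the spread of the members was not tested. Ikzf3 was the member with the widest range, with replicate 2 at 1.91 times replicate 3.

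**Figure D3:**
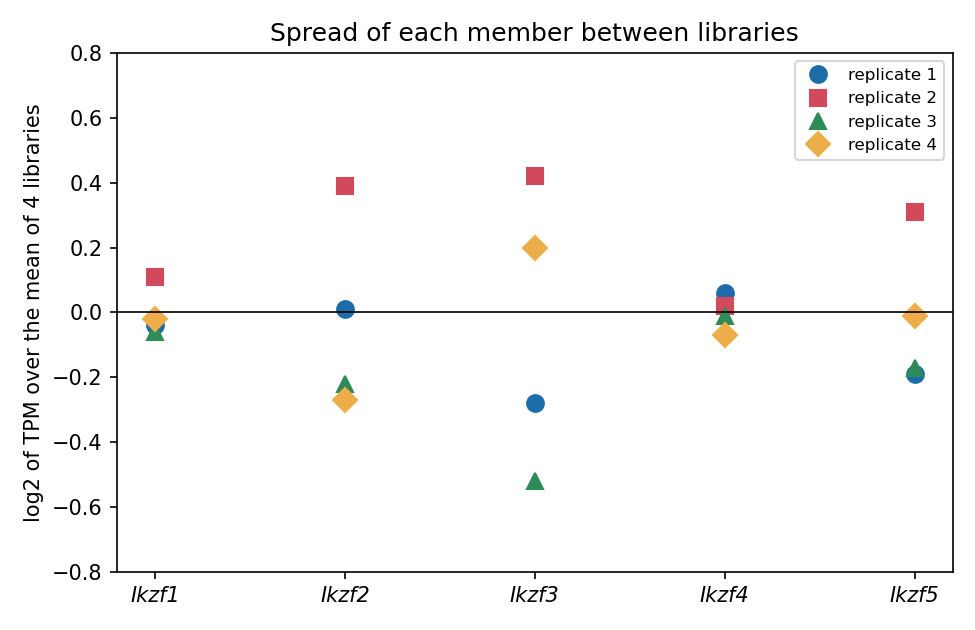
Log2 of the TPM of each member in replicates 1 to 4 over its mean in the 4 libraries. The points of Ikzf1 and Ikzf4 lie close to 0, and those of Ikzf3 are the most spread, with replicates 2 and 4 above and replicates 1 and 3 below.

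Whether a gene varied more than genes of its abundance was tested with edgeR across 13625 genes, by setting its quasi-likelihood dispersion against the trend for its abundance. Of these, 0.00734% were called at an adjusted p under 0.05, and 0 of the 5 members were. At an unadjusted p under 0.05, 4.7% of the genes and 2 of the 5 members stood out. For Ikzf3 the log2 ratio of dispersion to prior was 4.12, the unadjusted p 0.00167 and the adjusted p 0.848 (edgeR quasi-likelihood test), and 0.176% of the genes had a p as small. For Ikzf2 the ratio was 2.93, with an unadjusted p of 0.0151 and an adjusted p of 0.965 by the same edgeR test. Ikzf5 had a ratio of 1.91 (unadjusted p = 0.0722 in edgeR), and Ikzf4 and Ikzf1 lay below their prior at -1.13 and -1.60. Without replicate 2, the ratio was 1.90 for Ikzf2 (unadjusted p = 0.0637 in edgeR) and 0.25 for Ikzf5 (unadjusted p = 0.347 in edgeR). The result for Ikzf3 depended on the method: without the filter on low counts its adjusted p in edgeR was 0.000543, DESeq2 marked it as a dispersion outlier, and without replicate 2 its adjusted p was 0.0711. Over all edgeR and limma alternatives, its adjusted p ran from 0.000543 to 0.963.

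**Figure D4:**
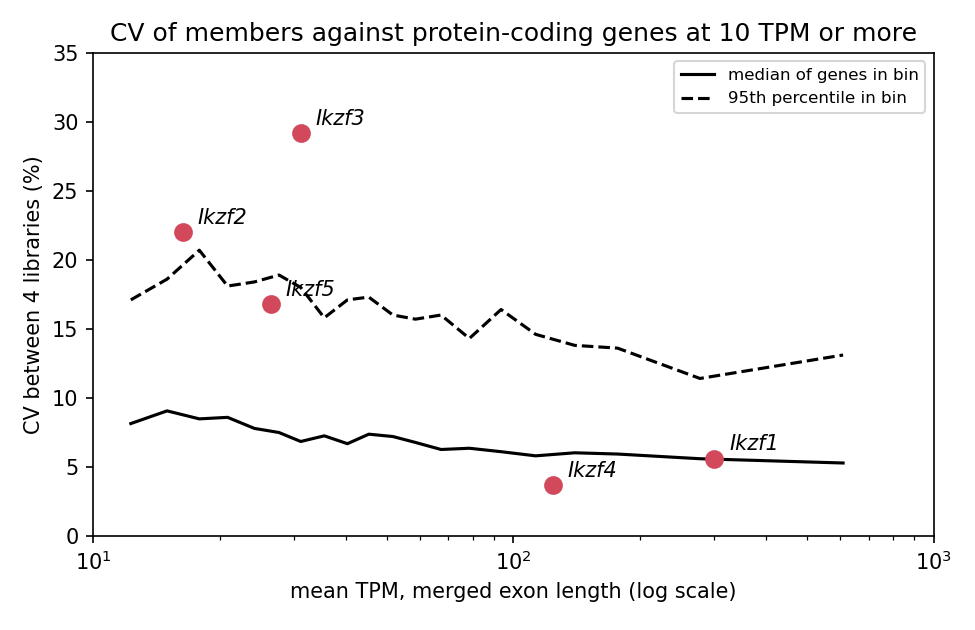
CV between 4 libraries against mean TPM (log axis), with the median (solid) and 95th percentile (dashed) of protein-coding genes at 10 TPM or more in bins of level. Ikzf3 at 29.2% and Ikzf2 at 22% lie above the dashed line, and Ikzf5 at 16.8% lies below it. Ikzf1 at 5.58% and Ikzf4 at 3.66% lie near or below the solid line.

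Several other measures moved between the same libraries. Replicates 2 and 4, where Ikzf3 was high, were also the shallowest libraries, with 62472060 and 51460018 counts. Foxp3, which fixes regulatory T cell identity, was at 471, 408, 450 and 463 TPM in replicates 1 to 4. It was lowest in replicate 2, where Ikzf3 was highest. Replicate 4, also high in Ikzf3, had more Foxp3 than replicate 3, where Ikzf3 was lowest. Foxp3 did not stand out in the variability test (unadjusted p = 0.26 in edgeR). The part of depth in the spread of Ikzf3 was not tested. B cells are known to express much Aiolos. The summed level of 9 B cell markers was 12.2, 9.39, 12.6 and 11.5 TPM in replicates 1 to 4, most of it from Fcmr at 6.56 and Cd79b at 3.14 TPM on average. Fcmr was at 6.88, 5.61, 7.37 and 6.38 TPM and Cd79b at 3.7, 2.2, 3.55 and 3.1 TPM. Both were lower in replicates 2 and 4 than in replicates 1 and 3. Cd79a went the other way, at 0.346, 0.646, 0.529 and 1.18 TPM, highest in replicates 4 and 2, on 17 to 26 counts. Cd22 had no count in any library. The part of B cells in the spread of Ikzf3 was not tested. Between replicates 1 and 2, high in Xist, and replicates 3 and 4, the TPM values of Ikzf2 and Ikzf4 did not overlap. Both genes were higher in replicates 1 and 2. Such separation in TPM held for 2 of 5 members and for 19.5% of the 8113 protein-coding genes at 10 TPM or more. Its relation to sex was not tested. In CPM, Ikzf4 was at 136, 130, 132 and 124 in replicates 1 to 4, and its values overlapped.

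A rule on distance named the genes most like each member in level and pattern, as the smallest Euclidean distance between log2(TPM + 0.1) values in the 4 libraries among 21763 other protein-coding genes. Nearest to Ikzf1 were the GTPase gene Rac1, at a distance of 0.04, and the translation termination factor gene Gspt1 at 0.05. Nearest to Ikzf4 were the mitochondrial protease subunit gene Afg3l2 at 0.04 and the deubiquitinase gene Usp19 at 0.06. For Ikzf5 they were Hook1 at 0.08 and Dhx40 at 0.12. Within a distance of 0.25, Ikzf1 had 73 genes, Ikzf4 had 185 and Ikzf5 had 96, whereas Ikzf2 and Ikzf3 had 0. The nearest to Ikzf2 were Zbtb6 and Pan3, both at 0.25. The nearest to Ikzf3 were the endocytic receptor gene Ly75 at 0.26, with 26, 39.7, 22.1 and 30.2 TPM, and the glycosyltransferase gene C1galt1 at 0.30, with 27, 44.6, 26 and 33 TPM. Both had replicates 2 and 4 highest, which the rule selects for, as it picks genes by their closeness to the pattern of Ikzf3. The distances rest on 4 libraries that share depth and processing.

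Overlapping genes limit 1 member. Exons of Ikzf5 share 4652 bases, 81.3% of its merged length, with exons of Pstk on the opposite strand, a kinase gene of selenocysteine synthesis. Pstk had 1350, 792, 999 and 606 counts in replicates 1 to 4, or 23.3% to 33.6% of the counts of Ikzf5. The file headers state counting by strand, and fragments whose strand was lost were not measured. Ikzf2 shares 144 bases with the antisense gene Gm29114, which had 1 count in all libraries together. Ikzf4 shares 37 bases with Gm26876, which had 24 to 44 counts, and no exon of another gene overlaps the exons of Ikzf1 or Ikzf3.

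Genes of the complexes that family members recruit were present nearly throughout. Of 15 NuRD subunit genes, 14 were at 10 TPM or more in all 4 libraries, as were 37.3% of all protein-coding genes. The list median was 166 TPM against 1.04 over all protein-coding genes. No list of chromatin genes unrelated to the family was compared. The histone-binding subunit gene Rbbp7 was at 516 ± 25.1 TPM, the ATPase gene Chd4 at 436 ± 17.2 and Mta2 at 321 ± 7.67 (SD, n = 4), so that Chd4 exceeded Ikzf1 itself. Chd5, an ATPase known from neurons, was the exception at 0.07 TPM. Of 10 genes of other corepressors, 9 reached 10 TPM, with a median of 64.4 TPM. Ctbp1, the partner of Eos, was at 186 ± 7.68 TPM, while its paralogue Ctbp2 was at 0.693 ± 0.248 TPM. All 8 BAF remodeller genes on the list reached 10 TPM, from Smarce1 at 38.6 to the ATPase gene Smarca4 at 182 TPM.

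Genes of enzymes that modify Ikaros proteins were less even. Of 14, 12 were at 10 TPM or more, as were 37.3% of all protein-coding genes, and the list median was 41.9 TPM. The phosphatase gene Ppp1ca was at 1332 ± 61.2 TPM and the casein kinase subunit gene Csnk2b at 318 ± 14.2 (SD, n = 4), whereas Syk, a kinase of Ikaros in B cells, was at 0.213 ± 0.0737. Of the 5 genes of the cereblon ligase, through which thalidomide analogues degrade human Ikaros and Aiolos, all 5 reached 10 TPM. Ddb1 was at 785 ± 12 TPM, Rbx1 at 80.3 ± 5.2, Cul4b at 70.9 ± 7.33 and Cul4a at 44.1 ± 3.3, and the substrate receptor gene Crbn was the lowest at 22 ± 2.12 TPM (SD, n = 4).

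Of 20 genes listed as Ikaros family targets from general knowledge of lymphocytes, 8 were at 10 TPM or more in all 4 libraries, or 40%, near the 37.3% of all protein-coding genes. The list median was 3.43 TPM. The high ones were Irf4 at 786 ± 42.6 TPM, Cd4 at 656 ± 16.2, the proto-oncogene Myc at 477 ± 15.6 and the cyclin genes Ccnd2 at 360 ± 16.1 and Ccnd3 at 150 ± 9.13 (SD, n = 4). Bcl2 was at 29 ± 2.57, Tbx21, which encodes T-bet, at 22.7 ± 5.23 and Cdk6 at 22.4 ± 2.62 TPM. Il2, a cytokine gene silenced by Ikaros and Aiolos in other T cells, was at 8.09 ± 0.991 TPM, and Bcl6 at 5.94 ± 1.09 TPM. The other 10 had means under 1 TPM: the thymocyte and B cell precursor genes Rag1, Dntt, Ptcra, Igll1 and Vpreb1, with Cd8a, Ifng, Prdm1, Hes1 and Dtx1. Levels in 1 group do not tell whether any of them is regulated by the family here.

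Tbx21 was the 1 target gene with an unadjusted p under 0.05 in the variability test (0.0293, adjusted p 0.965 in edgeR). It was at 23.2, 26.6, 15.2 and 26 TPM in replicates 1 to 4, lowest in replicate 3, as Ikzf3 was. Over the 9 lists, 90 of 96 distinct genes could be tested, 0 were called by edgeR at an adjusted p under 0.05, and DESeq2 marked 0 as outliers. At an unadjusted p under 0.05, 5 of the 90 stood out, or 5.56% against 4.7% of all genes tested.

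Other transcription factors and cofactors act beside the family. All 10 Foxp3 partner genes (Foxp3 included) and all 17 lymphoid factor genes were at 10 TPM or more. The Foxp3 partners include Ctbp1, which was also counted among the corepressors. Foxp3 was at 448 ± 27.8 TPM, above Ikzf1, and Tcf7 at 449 ± 26.2, Tcf3 at 210 ± 17.3 and Ets1 at 203 ± 9.3 TPM were the highest of the lymphoid factors (SD, n = 4). The chromatin organizer gene Satb1 was the lowest on both lists, at 11.6 ± 1.09 TPM. The medians were 71.4 and 66.1 TPM, between the levels of Ikzf4 and Ikzf3. Among other markers used for thymic origin beside Helios, Nrp1 was at 56.9 ± 2.7 TPM, Gpr83 at 57.1 ± 8.27 and Swap70 at 19.5 ± 2.19 (SD, n = 4). Nrp1 was at 53.3, 57.4, 57 and 59.9 TPM in replicates 1 to 4, lowest in replicate 1. Gpr83 was at 45.1, 61.2, 58.6 and 63.5 TPM, also lowest in replicate 1. Swap70 was at 20.6, 21, 20.1 and 16.3 TPM, highest in replicate 2 and lowest in replicate 4, as Ikzf2 was.

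**Figure D5:**
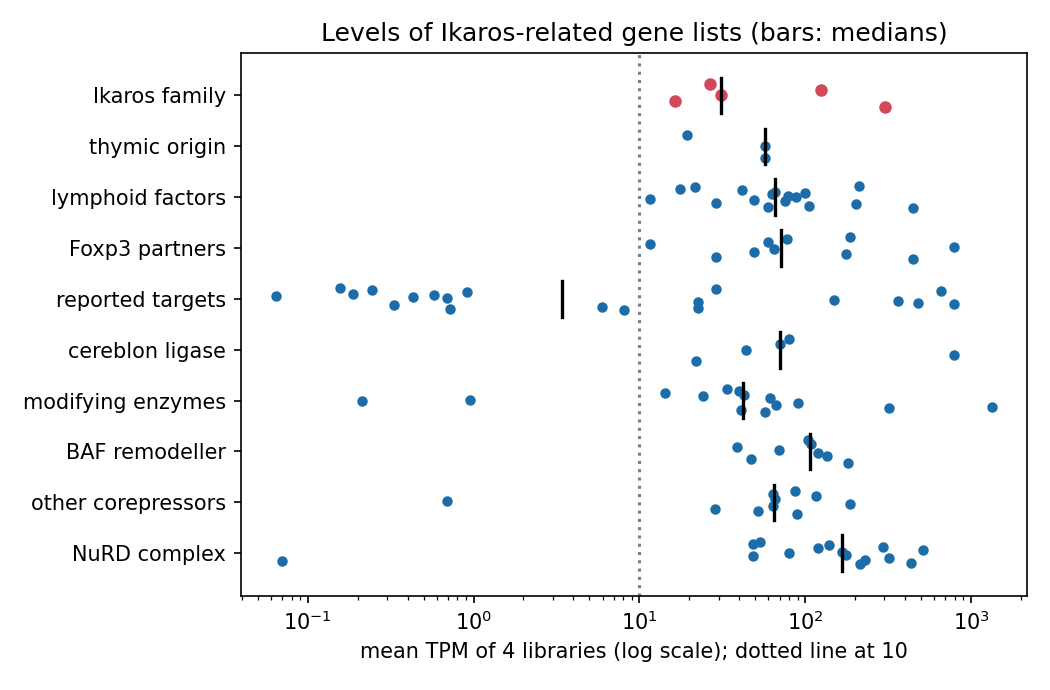
Mean TPM of 4 libraries (log axis) for each gene of the 9 lists and for the Ikaros family, with black bars at list medians and a dotted line at 10 TPM. The reported targets spread widest, with a median of 3.43 TPM, and the NuRD genes have the highest median of the 9 lists, 166 TPM.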

How the data were processed

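RNA-seq was analysed in 4 libraries of 1 group. The authors deposited raw fragment counts per gene, made on mm10 by featureCounts 1.4.6-p4 from GENCODE M13 exons, counting fragments with both ends mapped, by reverse strand (setting 2), per the file headers. Header names include star2, and the aligner is otherwise not stated there. The labels name total RNA-seq but link a poly(A)+ protocol. From 50600 identifiers, 50376 matched a symbol, and TPM was computed from counts and the deposited merged exon lengths. Coding and transcript lengths came from GENCODE M21. Proteins were translated from its coding sequences and aligned with Biopython 1.88 (BLOSUM62). The design had named RefSeq protein lengths, which were not used here.

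The variability fit used edgeR 4.0.16 under R 4.3.3 (TMM, filterByExpr, intercept-only quasi-likelihood fit, robust prior with 6.54 degrees of freedom, Benjamini-Hochberg over 13625 genes), and the procedure was tested on simulated data. Counts of any 2 libraries differed by more than sampling noise, with a chi-square per degree of freedom of at least 16.9, so 4 samples were kept. This does not tell whether they came from separate animals or from separate preparations of the same cells. PCR copies were not marked, so counting errors cover counting only. Finger matches were residues C, any 2 to 4, C, any 12, H, any 3 to 5, then H or C, and a gene of the class needed 4.

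The members and gene lists were chosen with earlier results of these data known. Named are the members, the 3 highest and the lowest gene of each list, all genes of the target, cereblon and thymic-origin lists, the 2 nearest genes of each member and overlapping genes. Xist, Eif2s3y and the C2H2 genes above the members were chosen after their values were seen. Alternatives were CPM, coding length, pseudocount 1, other thresholds (1 and 50 TPM, adjusted p 0.01), DESeq2 1.42.0 size factors and outliers, upper quartile normalization, no filter, at least 50 counts, no robust prior, limma 3.58.1 and leaving out each replicate. The transcript length was added after seeing the data.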

Additional observations from a re-analysis of the deposited data

How the results depend on the processing

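Without length normalization the members stood at 510 (Ikzf1), 56 (Ikzf2), 80.1 (Ikzf3), 130 (Ikzf4) and 44.5 (Ikzf5) CPM. Per coding length they stood at 376, 41.5, 62.3, 74.8 and 41.9 TPM. By the longest coding transcript, added after seeing the data, Ikzf1 stood at 257, Ikzf3 at 57.1 and Ikzf4 at 65.8 TPM. The means of the 10 pair differences kept their sign in 79 of 80 values under alternatives, which include pseudocount 1 and leaving out each replicate. The exception was Ikzf5 over Ikzf2, at -0.32 in CPM. A kept sign of the mean did not always hold within libraries. Ikzf4 over Ikzf3 was 0.31 per coding length and 0.25 by the longest coding transcript, each positive in 2 of 4 libraries. Ikzf5 over Ikzf2 was 0.02 per coding length, also positive in 2 of 4.

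No filter on low counts gave 98 genes called variable and DESeq2 43. Each marked 1 member, Ikzf3, which had a log2 dispersion ratio of 4.13 without the filter. Leaving out a replicate gave 1 to 18 genes, with 2 without replicate 1 and 18 without replicate 2, and 0 members each time. At 50 TPM in place of 10, all 9 lists held fewer genes. They held 12 NuRD genes, 7 other corepressors, 6 BAF remodeller genes, 6 modifying enzymes and 3 cereblon ligase genes. The rest held 5 targets, 7 Foxp3 partners, 11 lymphoid factors and 1 thymic-origin marker.

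No paired analysis was possible because there was 1 group. Exact tests on 4 libraries cannot go below 2 of 16 sign assignments, and on the 3 libraries left by omitting a replicate they cannot go below p = 0.25.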
